A study of Mus musculus with 12 samples.

Results

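The Hox genes encode homeodomain transcription factors that give cells along the body axis and along the limb their position. In mammals they lie in 4 clusters, Hoxa to Hoxd, and within a cluster genes of low paralog number are used nearer the head and genes of high paralog number nearer the tail and, in limbs, nearer the digits. Most of the calvaria grows from cranial neural crest and head mesoderm in front of the Hox domain, while the limb skeleton grows from trunk mesoderm that carries a Hox code. The members were all array probes whose annotated symbol is Hoxa, Hoxb, Hoxc or Hoxd followed by a number. There were 53 such probes of 38 genes, among 46643 probes and 19406 annotated gene symbols on the array. Cluster A on chromosome 6 had 10 genes and 17 probes, cluster B on chromosome 11 had 10 genes and 13 probes, cluster C on chromosome 15 had 9 genes and 12 probes, and cluster D on chromosome 2 had 9 genes and 11 probes.

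Bead arrays measured RNA from skeletal tissue of C57BL/6 mouse embryos at embryonic day 16.5. The mutant, S1Pcko, was S1P f/f;Col2-Cre, so site-1 protease (S1P, the product of Mbtps1, a Golgi enzyme that cleaves membrane-bound transcription factors) was removed only where Col2-Cre acts, which is in chondrocytes and their early precursors. Littermates served as WT and could be S1P f/f without Cre, or S1P f/+ with or without Col2-Cre, so all carried at least 1 floxed S1P allele. Chondroepiphyseal cartilage from the ends of fore- and hindlimb bones was hybridised to 2 WT and 2 S1Pcko arrays, whole long bones with their cartilage to 3 and 3 arrays, and calvaria to 1 and 1. Replicate 2 of each cartilage and long bone group is labelled as a second amplification of RNA. WT long bone replicates 1 and 2 carry the same extract name, as do both arrays of each cartilage group. The spread between arrays is thus partly technical, in cartilage perhaps wholly, and the p-values leave out part of the spread between embryos. The share of forelimb and hindlimb in each extract is not given in the sources used here.

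Between 44.1% and 47.1% of all probes were detected per array, where detected means a detection p under 0.05 against the negative controls of that array. Levels, given throughout as normalized log2 intensities, correlated at r = 0.977 to 0.992 between arrays of one group and at 0.939 to 0.986 between arrays of different groups. The brighter Mbtps1 probe read 8.89 and 9.04 in WT cartilage and 8.62 and 8.87 in S1Pcko cartilage (difference -0.22 ± 0.23 SE, adjusted p = 0.658), and where it lies relative to the floxed part of the gene is not given in the sources used here, so it does not check the genotype labels. Markers of cartilage, such as Col2a1, and of osteoblasts were detected in every tissue (at least 8 of 10 and 6 of 7 genes). Skeletal muscle markers were present everywhere (at least 9 of 10 detected), with summed intensities of 38300 to 111000 on limb arrays and 9780 to 10900 on calvaria arrays. In such bulk RNA, fewer cells of a type and less RNA per cell cannot be told apart.

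The upstream sequences of 4 genes that were bright in limb and at or near background in calvaria are shown, because these genes share that pattern. RefSeq promoter entries (GRCm38.p6) matched 22 of the 38 genes. Each sequence is the 250 bases before the annotated start on the gene's strand, with CpG dinucleotides in capitals.
Hoxa5 (chr6:52204588-52204837, minus strand, 28 CpGs): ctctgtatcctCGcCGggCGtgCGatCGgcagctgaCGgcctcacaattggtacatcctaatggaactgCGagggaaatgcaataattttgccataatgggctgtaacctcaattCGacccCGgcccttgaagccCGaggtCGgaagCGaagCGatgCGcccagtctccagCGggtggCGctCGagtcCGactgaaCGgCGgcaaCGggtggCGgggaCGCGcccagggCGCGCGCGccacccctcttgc
Hoxa7 (chr6:52218574-52218823, minus strand, 7 CpGs): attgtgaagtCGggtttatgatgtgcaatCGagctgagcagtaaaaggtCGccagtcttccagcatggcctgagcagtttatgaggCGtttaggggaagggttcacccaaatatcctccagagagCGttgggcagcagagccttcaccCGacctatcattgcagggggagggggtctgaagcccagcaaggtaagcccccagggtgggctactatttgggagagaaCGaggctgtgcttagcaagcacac
Hoxd9 (chr2:74697513-74697762, plus strand, 13 CpGs): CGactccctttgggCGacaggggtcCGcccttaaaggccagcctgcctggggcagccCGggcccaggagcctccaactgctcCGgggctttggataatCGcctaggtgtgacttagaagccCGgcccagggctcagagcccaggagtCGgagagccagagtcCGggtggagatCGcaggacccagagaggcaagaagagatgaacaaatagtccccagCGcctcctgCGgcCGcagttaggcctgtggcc
Hoxd10 (chr2:74691641-74691890, plus strand, 20 CpGs): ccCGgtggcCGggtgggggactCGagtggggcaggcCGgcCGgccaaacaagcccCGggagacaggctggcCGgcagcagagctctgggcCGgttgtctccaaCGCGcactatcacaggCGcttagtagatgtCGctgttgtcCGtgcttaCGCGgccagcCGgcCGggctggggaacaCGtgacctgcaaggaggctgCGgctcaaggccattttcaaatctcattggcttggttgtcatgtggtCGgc
The capitals show how unequal the CpG content was among genes with a like expression pattern, from 7 in Hoxa7 to 28 in Hoxa5.

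Across the 24 windows of the 22 matched genes the CpG count ran from 2 to 35 with a median of 12.5, against a median of 6 over all 32851 windows of the table, of which 31.5% held at least that Hox median. The 13 windows of genes detected on all 10 limb arrays had a median of 7 CpGs and the other 11 a median of 13. The TATA motif TATAAA was found on either strand in 4 of the 24 windows (12.4% of all windows), and TGATTNAT, the joint site of a Hox protein and its cofactor Pbx, in 2 (2.82% of all windows). These are descriptions of letters in a short window only.

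The plain on and off pattern separated head from limb skeleton. On limb arrays 49.1% to 58.5% of the 53 Hox probes were detected. On the WT calvaria array it was 14 of 53 (26.4%) and on the S1Pcko calvaria array 13 of 53 (24.5%). The calvaria arrays did not detect fewer probes in all, at 44.8% and 46.7%. At a detection p under 0.001 the mean shares were 46.8% for limb and 17.0% for calvaria.

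Gene by gene, 8 genes had their brightest probe detected on all 10 limb arrays and on no calvaria array, namely Hoxa7, Hoxa9, Hoxa10, Hoxc6, Hoxc8, Hoxc9, Hoxd9 and Hoxd10. These are the genes of the middle and rear of the clusters, and those of paralog groups 9 and 10 act in the proximal and middle limb segments. Hoxa5 and Hoxb5, trunk genes of the neck and shoulder level, were detected on all limb arrays and on the WT calvaria array only. A further 9 genes were detected on all 12 arrays, of which 5 were of cluster B (Hoxb1, Hoxb2, Hoxb3, Hoxb4 and Hoxb7), and the others were Hoxc10, Hoxd4, Hoxd8 and Hoxd11. Hoxc10 was near the threshold in calvaria (detection p of 0.0207 and 0.0401). Hoxd11 was near it in WT calvaria (0.0343) and on limb arrays (up to 0.0496).

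**Figure D1:**
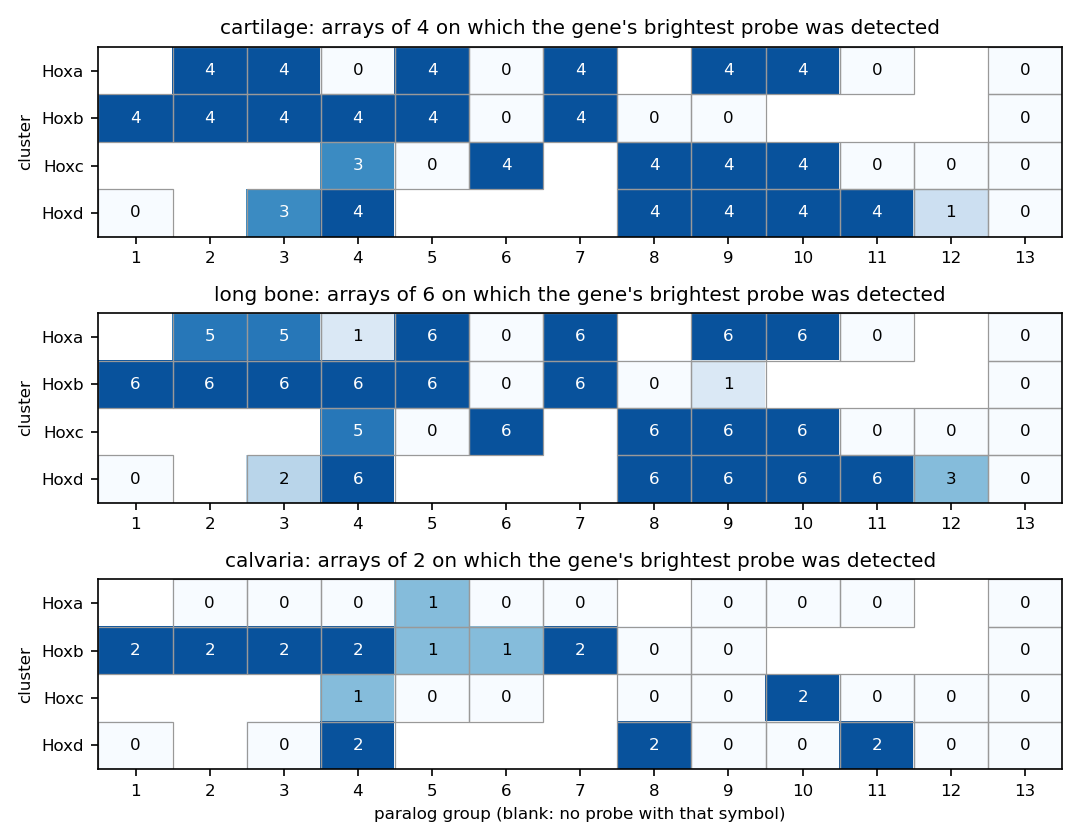
Number of arrays on which the brightest probe of each Hox gene was detected, by cluster (rows) and paralog group (columns), for cartilage (of 4 arrays), long bone (of 6) and calvaria (of 2); blank squares have no probe. Cartilage and long bone show nearly the same squares, and in calvaria 9 genes keep detection on both arrays.

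The remaining genes were dim. Hoxa2, Hoxa3, Hoxa4, Hoxb9, Hoxd3 and Hoxd12 were detected on some limb arrays and on no calvaria array, Hoxc4 on 8 limb arrays and 1 calvaria array, and Hoxb6 on the WT calvaria array alone, at a detection p of 0.042 and a level of 5.08. For 11 genes no probe was detected on any array (Hoxa6, Hoxa11, Hoxa13, Hoxb8, Hoxb13, Hoxc5, Hoxc11, Hoxc12, Hoxc13, Hoxd1 and Hoxd13). Of the 9 genes of paralog groups 11 to 13, which pattern the distal limb and the tail end, 7 were detected on no array. For most of them this rests on a single probe, since 26 of the 38 genes had 1 probe, so a failed probe and a silent gene cannot be told apart.

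Of the 53 probes, 30 from 24 genes were detected on at least 2 of 12 arrays and entered the fit. The other 23, of which 19 were detected on no array and 4 on 1, were not tested. Calls required an adjusted p under 0.05 (limma, Benjamini-Hochberg over 24328 probes) and a 2-fold difference. Each calvaria group had 1 array, so its spread was not measured. The calvaria p-values assume that calvaria varied like the cartilage and long bone arrays.

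Most Hox transcripts measured in the limb skeleton were lower in calvaria. Of the 30 tested probes 19, from 17 genes, were called lower in calvaria than in long bone and 0 were called higher (2.22% of all tested probes were called lower and 1.86% higher). Against cartilage 20 probes, from 18 genes, were called lower and 0 higher, where 3.68% of all tested probes were called lower and 4.33% higher. Many members could enter the test only through limb arrays: 15 of the 30 were detected on no calvaria array, and of these 11 were called lower than in long bone. Of the 15 that were detected on a calvaria array, 8 were called lower. Leaving out any 1 array changed the count against long bone to between 17 and 19.

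The largest difference was in Hoxc6, which helps set the thoracic identity of vertebrae. It read 9.91 and 9.55 in WT cartilage, 9.82 and 9.25 in S1Pcko cartilage, 9.96, 9.61 and 9.98 in WT long bone, and 9.64, 9.61 and 9.49 in S1Pcko long bone. In calvaria it read 4.33 (WT) and 4.43 (S1Pcko) and was not well above background. All limb arrays lay within 0.73 log2 units of each other and far above both calvaria arrays, so Hoxc6 was at least 26.0-fold higher in long bone and at least 24.5-fold higher in cartilage than in calvaria (adjusted p = 2.42e-08 and 3.95e-08). The fitted difference from long bone, -5.33 ± 0.18 (SE) on the log2 scale, was -3.73 without background correction and -2.70 when both Hoxc6 probes were averaged. A bound of this kind sets the limb mean against the lowest level that counted as detected on each calvaria array. An adjusted p printed beside a bound, here and below, belongs to the fitted difference, which takes undetected arrays at their reading. It is not a test of the bound.

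Hoxc8, a gene of the trunk and brachial level, followed the same pattern. It read 9.45 and 9.79 in WT cartilage, 9.38 and 9.29 in S1Pcko cartilage, 9.09, 8.67 and 9.44 in WT long bone, and 9.84, 9.78 and 9.70 in S1Pcko long bone, against 4.43 and 4.35 in calvaria. No limb array came near the calvaria level, and the difference was at least 21.2-fold from long bone and at least 22.1-fold from cartilage (adjusted p = 5.13e-08 and 7.57e-08). The dimmer Hoxc8 probe was flat (0.11 against long bone), and with both probes averaged the difference from long bone was -2.46.

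Hoxa5, known for axial and lung patterning, read 9.51 and 9.37 in WT cartilage, 9.21 and 9.10 in S1Pcko cartilage, 9.27, 9.28 and 8.57 in WT long bone, and 9.24, 9.11 and 9.15 in S1Pcko long bone. In calvaria it was detected at 5.20 on the WT array and was not well above background at 4.50 on the S1Pcko array. Within WT, where calvaria was detected, the difference from long bone was -3.84 on the log2 scale, and within S1Pcko it was at least 18.3-fold. The fit over both genotypes gave -4.25 ± 0.18 (SE) from long bone (adjusted p = 1.51e-07) and -4.45 ± 0.19 from cartilage (adjusted p = 1.53e-07), values that take the undetected array at its reading.

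The 2 Hoxa7 probes gave like values. The brighter read 8.61 and 8.49 in WT cartilage, 8.31 and 8.24 in S1Pcko cartilage, 8.39, 8.22 and 8.66 in WT long bone, 8.36, 8.41 and 8.02 in S1Pcko long bone, and 4.52 and 4.51 in calvaria. The other read 7.64 to 8.62 on limb arrays and 4.41 and 4.42 in calvaria. Both calvaria arrays lay near the floor for both probes, and the bounds were at least 10.1-fold and at least 8.12-fold against long bone (adjusted p = 1.10e-07 and 1.81e-07).

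The other rear genes, named after their values were seen, showed the same direction with smaller bounds. Against long bone, Hoxc9 was at least 6.24-fold, Hoxd10 at least 6.02-fold, Hoxd9 at least 4.78-fold, Hoxa9 at least 4.59-fold and Hoxa10 at least 3.93-fold lower in calvaria, none of them well above background there. The dimmer probes gave less: the Hoxa9 probe was at least 2.03-fold lower, and the Hoxa10 probe was not called (-0.70, adjusted p = 0.0616). Hoxa2, also named after its values were seen, is a front gene that in the second pharyngeal arch holds back bone formation. It read 4.92 to 6.39 on limb arrays and 4.29 and 4.35 in calvaria (at least 1.58-fold, with adjusted p = 0.0114 for the fitted difference).

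**Figure D2:**
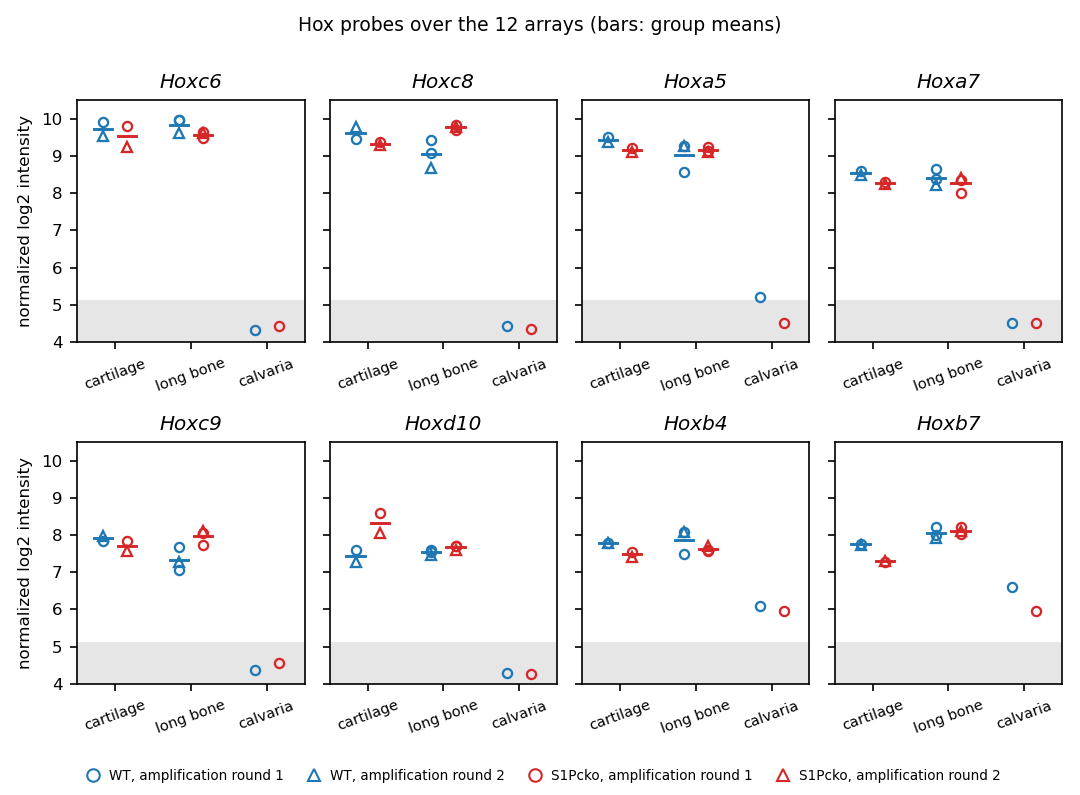
Normalized log2 intensity of 8 Hox probes in cartilage, long bone and calvaria; each symbol is 1 array, bars are group means, blue is WT and red S1Pcko, circles and triangles are the first and second amplification round, and grey covers levels up to 5.09, the highest of the arrays' lowest detected levels. Hoxc6 reads 4.33 and 4.43 in calvaria and 9.25 to 9.98 on limb arrays, while Hoxb4 and Hoxb7 stay above the grey in calvaria.

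Several front genes were lower in calvaria and still detected there. Hoxb2, which patterns the hindbrain and its neural crest, read 5.64 and 5.46 in calvaria and 7.41 to 9.65 on limb arrays, a difference of -3.12 ± 0.20 from long bone (adjusted p = 2.24e-06). Hoxb4, a gene of the neck vertebrae and of blood progenitors, read 6.10 and 5.96 in calvaria and 7.42 to 8.09 on limb arrays (-1.72 ± 0.17, adjusted p = 5.54e-05). Hoxb5 read 5.64 and 4.81 in calvaria, of which only the WT value was detected, and the fitted difference was -2.81 ± 0.23 (adjusted p = 1.53e-05), at least 7.75-fold within S1Pcko.

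Of the calvaria levels of Hoxb2, Hoxb4 and Hoxb5, all but that of Hoxb5 on the S1Pcko array were detected. Hoxb7 read 6.60 and 5.96 in calvaria and 7.29 to 8.22 on limb arrays (-1.80 ± 0.13 from long bone, adjusted p = 4.63e-06). Hoxd4, a neck-level gene, read 5.34 and 5.48 in calvaria and 6.99 to 8.17 on limb arrays (-2.16 ± 0.19, adjusted p = 2.69e-05). Hoxd8 read 5.67 and 6.14 in calvaria and 7.63 to 8.72 on limb arrays (4.01-fold lower than in long bone, adjusted p = 3.84e-06).

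Hoxc10, a gene of the hindlimb and lumbar level, read 5.18 and 5.02 in calvaria against 6.27 to 8.68 on limb arrays. Its difference from long bone was -1.51 ± 0.34 (adjusted p = 0.0175). With 1 calvaria array left out only the other genotype could be compared. Hoxc10 was then no longer called, at -1.69 within S1Pcko and -1.33 within WT. The difference from cartilage was -2.45 ± 0.36 (adjusted p = 0.000688).

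Another set was flat. The probes of Hoxb1 and Hoxd11, the brighter probe of Hoxb3, a Hoxc4 probe and the dimmer probes of Hoxc6 and Hoxc8 were detected on at least 10 arrays and spanned less than 1 log2 unit over all 12. In calvaria Hoxb1 read 5.50 and 5.51, Hoxb3 5.90 and 5.87, and Hoxd11 5.11 and 5.31, while the limb medians of the 6 flat probes lay between 5.20 and 5.94. The 2 Hoxc4 probes read 4.99 and 5.08, and 4.98 and 5.12, in calvaria, each detected on the S1Pcko calvaria array only. For Hoxc6 and Hoxc8 the probes of a gene disagreed, since the dimmer ones read 5.77 and 5.25, and 5.76 and 5.48, in calvaria, where the brighter ones were at background. Which transcripts these probes match is not given in the sources used here, so the detection of Hox genes in calvaria by flat dim probes is reported as a reading of those probes only.

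Other tissue markers moved with the step from limb to calvaria. Of 8 tested cartilage markers 6 were called lower in calvaria than in long bone, with summed intensities of 60300 to 107000 in long bone and 29500 to 32200 in calvaria. Of 10 skeletal muscle markers 8 were called lower, whereas 0 of 7 osteoblast markers were (summed 40800 to 57100 and 55400 to 58000). Their part in the Hox differences was not tested.

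Position factors outside the clusters separated the same tissues. Of 20 tested, 9 were called higher in calvaria than in long bone and 3 lower. Zic1, a head and dorsal neural factor, read 10.66 and 10.37 in calvaria and 4.47 to 5.32 on limb arrays, and Tbx5, which starts the forelimb, read 4.51 and 4.53 in calvaria and 8.34 to 10.10 on limb arrays. Of 7 tested PBC and MEIS class cofactors, which bind DNA with Hox proteins (Pbx, Meis and Pknox genes), 0 were called in either direction against long bone, with a median difference of 0.16. Meis1 had an adjusted p under 0.05 with less than a 2-fold difference, against long bone (-0.50, adjusted p = 0.0497) and cartilage (-0.91, adjusted p = 0.00137), as did Pknox1 against cartilage (-0.82, adjusted p = 0.0203). Of 18 Polycomb and Trithorax regulators, which hold Hox clusters silent or active, 0 were called (median 0.05).

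Within the limb, whole long bone and its cartilage carried nearly the same Hox genes. All 19 genes whose brightest probe was detected on every long bone array were detected on every cartilage array too. Of 30 tested probes 26 had a 95% confidence interval for long bone against cartilage inside 2-fold in both directions. The share of all tested probes with such an interval was not counted, and the intervals leave out part of the spread between embryos. The median difference was -0.065, against -0.02 over all tested probes. Calls were made for 2 probes (1.85% of all tested probes were called), Hoxb5 higher and Hoxd9 lower in long bone.

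Hoxb5, whose loss shifts the mouse shoulder girdle, read 7.34 and 7.23 in WT cartilage and 6.59 and 6.75 in S1Pcko cartilage. In long bone it read 8.33, 8.61 and 7.50 (WT) and 7.96, 7.87 and 7.95 (S1Pcko). Every long bone array lay above every cartilage array (4.39% of all tested probes did so). The difference was 1.06 ± 0.18 on the log2 scale, or 2.08-fold (adjusted p = 0.00439), 0.97 in the first amplification round and 1.25 in the second. It fell just under 2-fold without WT long bone replicate 2 (0.94, adjusted p = 0.00662), and with the amplifications of 1 labelled extract averaged it was 0.98 with an adjusted p of 0.127.

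Hoxd9, which acts with its neighbours in the upper limb segment, went the other way. It read 8.18 and 8.53 in WT cartilage and 8.24 and 8.64 in S1Pcko cartilage, and 7.08, 7.31 and 7.33 in WT and 6.94, 7.49 and 7.47 in S1Pcko long bone. All cartilage arrays were above all long bone arrays (3.27% of all tested probes were), and both genotypes gave nearly one difference, -1.11 in WT and -1.14 in S1Pcko. The mean was -1.13 ± 0.15 (adjusted p = 0.000839), -1.01 in the first amplification round and -1.18 in the second. The first round alone gave an adjusted p of 0.144.

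Of the 30 probes 7 had an adjusted p under 0.05 (10.9% of all tested probes), and the other 5 of these, with less than a 2-fold difference, were chosen for mention after their values were seen. Hoxb2 (0.76 ± 0.15, adjusted p = 0.0104) and Hoxb7 (0.56 ± 0.10, adjusted p = 0.00549) were higher in long bone, and Hoxd8 (-0.51 ± 0.11, adjusted p = 0.0129), Hoxa3 (-0.51 ± 0.15, adjusted p = 0.0459) and Hoxc10 (-0.95 ± 0.27, adjusted p = 0.0464) were lower. By cluster, all 6 tested Hoxb probes had a positive difference (median 0.36), while the medians were -0.16 for 9 Hoxa, -0.11 for 8 Hoxc and -0.28 for 7 Hoxd probes. Those of Hoxb1 (0.07), Hoxb4 (0.12) and Hoxb3 (0.16) were small, with adjusted p of 0.784, 0.625 and 0.343. Markers of bone cells moved with this step, with 6 of 7 osteoblast and 4 of 5 osteoclast markers called higher in long bone than in cartilage (osteoclast sums of 7070 to 25700 and 2360 to 4510), and their part in these differences was not tested.

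**Figure D3:**
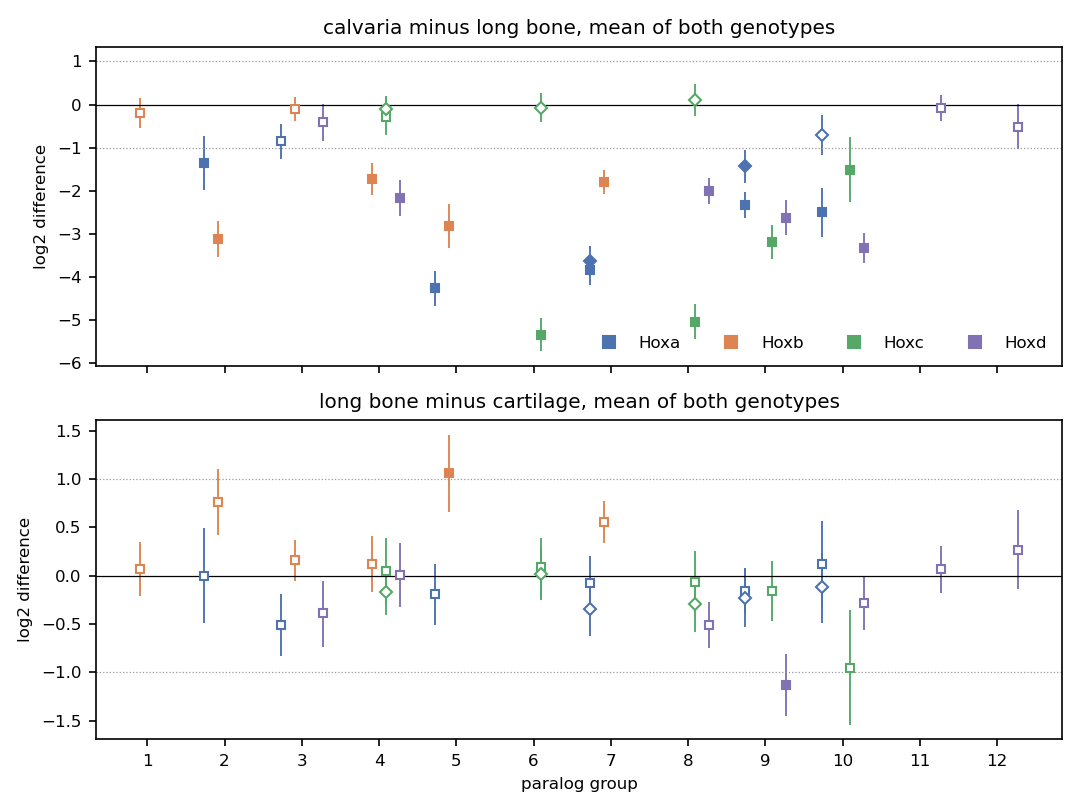
Log2 difference with its 95% confidence interval for the 30 tested Hox probes, by paralog group and cluster (colours), for calvaria minus long bone (top) and long bone minus cartilage (bottom); squares are the brightest probe of a gene, diamonds further probes, filled symbols passed the threshold and dotted lines mark 2-fold. The top panel reaches -5.33 for Hoxc6, while in the bottom panel only Hoxb5 and Hoxd9 are filled.

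Within one genotype the same comparison called 3 probes in WT (3.90% of all tested probes), Hoxb2 higher and Hoxc10 and Hoxd9 lower in long bone, and 2 in S1Pcko (0.958%), Hoxb5 higher and Hoxd9 lower, of which Hoxd9 alone was called with the amplification round as a block. Hoxb5 missed the threshold in WT at 0.86 ± 0.26 (adjusted p = 0.0590) and Hoxb2 in S1Pcko at 0.51 ± 0.22 (adjusted p = 0.292). The test of the difference between genotypes called 0 Hox probes (0.341% of all tested probes), with 7 of 30 at an unadjusted p under 0.05 (14.6% of all tested probes). These single-genotype calls depended on single arrays: the WT count was 0 without WT cartilage replicate 2, 1 without WT long bone replicate 1 and 4 without WT long bone replicate 3. In S1Pcko it was 0 without either S1Pcko cartilage array or without S1Pcko long bone replicate 1, and it was 1 (Hoxd9) without either WT cartilage array, WT long bone replicate 1 or S1Pcko long bone replicate 2 or 3.

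The last question is whether the code was altered where S1P was removed. In cartilage the number of Hox genes whose brightest probe was detected was 23 of 38 on each WT array and 23 and 22 on the S1Pcko arrays. The number of Hox probes called between genotypes was 0 in cartilage (2.34% of all tested probes), with 1 of 30 at an adjusted p under 0.05 (4.73% of all tested probes) and 8 at an unadjusted p under 0.05 (20.1%). An unmoderated linear model also gave 0. For 20 of the 30 the 95% interval lay within 2-fold in both directions. The share of all tested probes with such an interval was not counted. In cartilage, where the arrays of a group carry 1 extract name, the interval may hold technical spread only. In long bone 1 probe was called, as lower (1.00% of all tested probes were called and 0.403% called lower), and for 26 of 30 the interval lay within 2-fold.

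That probe was Hoxb2. In long bone it read 9.33, 9.65 and 8.89 in WT and 8.26, 8.05 and 7.83 in S1Pcko. All 3 mutant arrays were below all WT arrays (8.51% of all tested probes were). The difference was -1.24 ± 0.20 on the log2 scale, or 2.37-fold lower (adjusted p = 0.00712), -1.07 in the first amplification round and -1.60 in the second. In cartilage it read 8.17 and 8.39 in WT and 7.41 and 7.66 in S1Pcko, and the difference of -0.74 ± 0.24 did not pass the test (adjusted p = 0.108). In calvaria the arrays differed by -0.17.

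The Hoxb2 call stood without each array in turn (-1.44 to -1.06), although leaving out 1 array of a re-amplified extract leaves that extract in. The call was lost with the amplifications of 1 labelled extract averaged (-1.14, adjusted p = 0.125), in the first amplification round alone (adjusted p = 0.440) and without moderation of the variance (adjusted p = 0.0971). The averaging kept the S1Pcko long bone arrays apart, since the labels do not say which extract their second amplification came from. The paper reports that S1Pcko bones lack endochondral bone and have a cartilaginous diaphysis, so the long bone groups also differed in tissue. Other cell markers moved with Hoxb2 in S1Pcko long bone. Of 5 tested osteoclast markers 4 were called lower (sums of 22000 to 25700 in WT and 7070 to 14900 in S1Pcko). Of 5 erythroid markers 3 were called lower (27800 to 30800 and 10800 to 16100). Of 4 brain and nerve markers Sox10 was called higher (1.34, adjusted p = 0.00353 in limma). Summed leukocyte markers ran from 3570 to 12400 in WT and from 676 to 3440 in S1Pcko. Muscle markers summed to 97500 to 101000 in WT and to 111000, 40100 and 38300 in S1Pcko (0 of 10 called), and S1Pcko replicate 1, the array at 111000, also had the highest epidermis sum (2010 against 392 to 502 on the other long bone arrays). Without it Hoxb2 was at -1.35 (adjusted p = 0.00396). The part of tissue and cell makeup in the Hoxb2 difference was not tested.

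**Figure D4:**
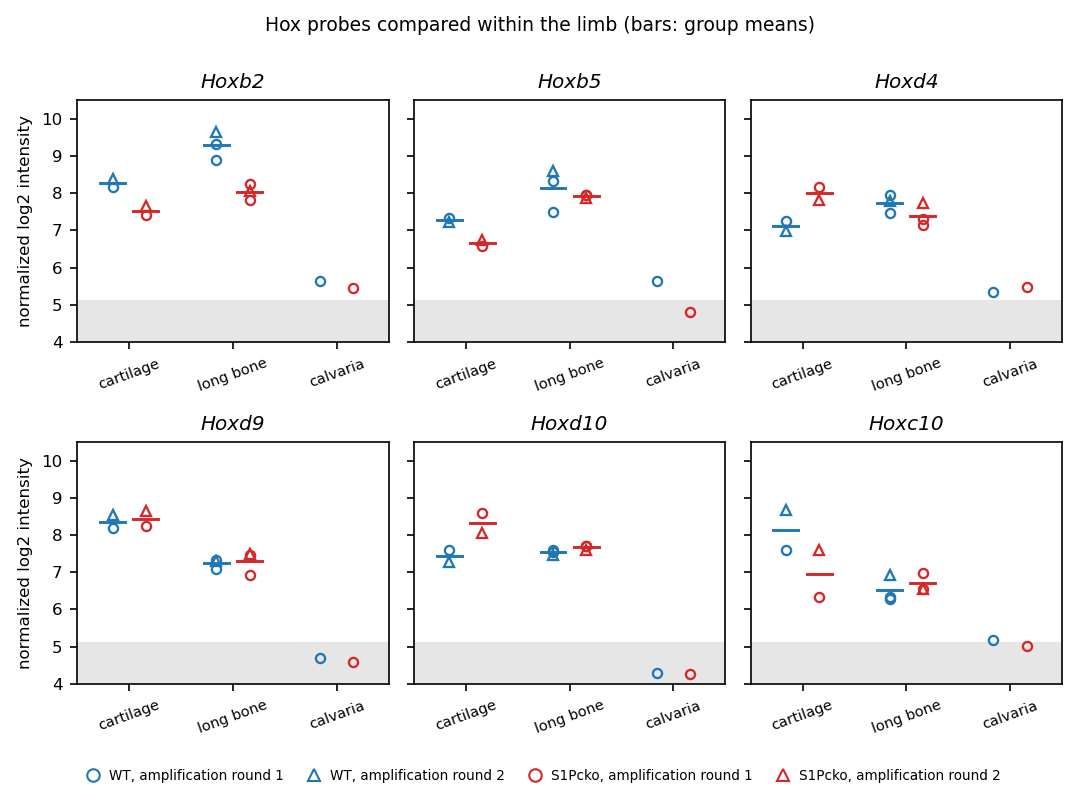
Normalized log2 intensity of 6 Hox probes by tissue and genotype; each symbol is 1 array, bars are group means, blue is WT and red S1Pcko, circles and triangles are the first and second amplification round, and grey covers levels up to 5.09. Hoxb2 in S1Pcko long bone reads 7.83 to 8.26 against 8.89 to 9.65 in WT, and the Hoxc10 triangles lie above the circles in cartilage.

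Further probes were chosen for mention after their values were seen. Hoxd10, a gene of the middle limb segments, read 7.59 and 7.28 in WT cartilage and 8.61 and 8.07 in S1Pcko cartilage. It was higher in both S1Pcko cartilage arrays, by 0.91 ± 0.19 or 1.88-fold (adjusted p = 0.0250), short of the 2-fold line that a call required. Without S1Pcko cartilage replicate 2 it was 1.18 (adjusted p = 0.0238), without S1Pcko cartilage replicate 1 0.63 (adjusted p = 0.156), and the adjusted p rose to 0.239 with the amplifications of 1 labelled extract averaged and to 0.406 in the first round alone. In long bone it read 7.61, 7.46 and 7.55 in WT and 7.70, 7.59 and 7.72 in S1Pcko, a difference of 0.13 ± 0.16. The difference between the tissues' genotype effects was 0.77 ± 0.25 (adjusted p = 0.209).

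Hoxd4 gave opposite signs in the tissues. It read 7.24 and 6.99 in WT and 8.17 and 7.83 in S1Pcko cartilage (0.88 ± 0.23, adjusted p = 0.0563), and 7.94, 7.80 and 7.47 in WT and 7.14, 7.74 and 7.30 in S1Pcko long bone (-0.34 ± 0.19, adjusted p = 0.439). The WT and S1Pcko values overlapped in long bone but not in cartilage, where 27.5% of all tested probes were higher without overlap. The test of the difference gave 1.23 ± 0.30 (adjusted p = 0.115), and its adjusted p ran from 0.0473 without WT long bone replicate 3, where Hoxc8 passed as well, to 0.303 without WT cartilage replicate 2. It was 0.792 with the amplifications of 1 labelled extract averaged and 0.869 in the first round alone.

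Hoxc10 varied most among arrays of one group. It read 7.61 and 8.68 in WT cartilage, 6.34 and 7.59 in S1Pcko cartilage, 6.27, 6.94 and 6.33 in WT long bone and 6.56, 6.56 and 6.99 in S1Pcko long bone. In cartilage the second amplification read 1.07 above the first in WT and 1.25 above it in S1Pcko, close to the size of the genotype difference of -1.18 ± 0.42 (adjusted p = 0.142). Within a round the genotypes differed by -1.27 and -1.08, and with the round as a block the probe was called (-1.18 ± 0.24, adjusted p = 0.0334). Leaving out 1 cartilage array moved the difference from -1.80 (without S1Pcko replicate 2) and -1.70 (without WT replicate 1) to -0.64 (without WT replicate 2) and -0.55 (without S1Pcko replicate 1), none of which was called. Tbx5 and Pitx1, factors of forelimb and hindlimb, averaged 9.13 and 6.55 in WT and 9.95 and 6.44 in S1Pcko cartilage, and the part of limb makeup in the Hoxc10 values was not tested.

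Hoxc8, by its brighter probe, and its cluster neighbour Hoxc9 were higher in S1Pcko long bone with no overlap (9.43% of all tested probes were higher in that way). Hoxc9 read 7.05, 7.28 and 7.67 in WT and 8.07, 8.12 and 7.74 in S1Pcko. The differences were 0.71 ± 0.18 for Hoxc8 and 0.65 ± 0.18 for Hoxc9, and neither passed the test (adjusted p = 0.0899 and 0.105). In cartilage they were -0.28 ± 0.23 and -0.20 ± 0.22. The dimmer Hoxc8 probe differed by -0.03 in long bone, where its groups overlapped, and by 0.25 in cartilage.

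**Figure D5:**
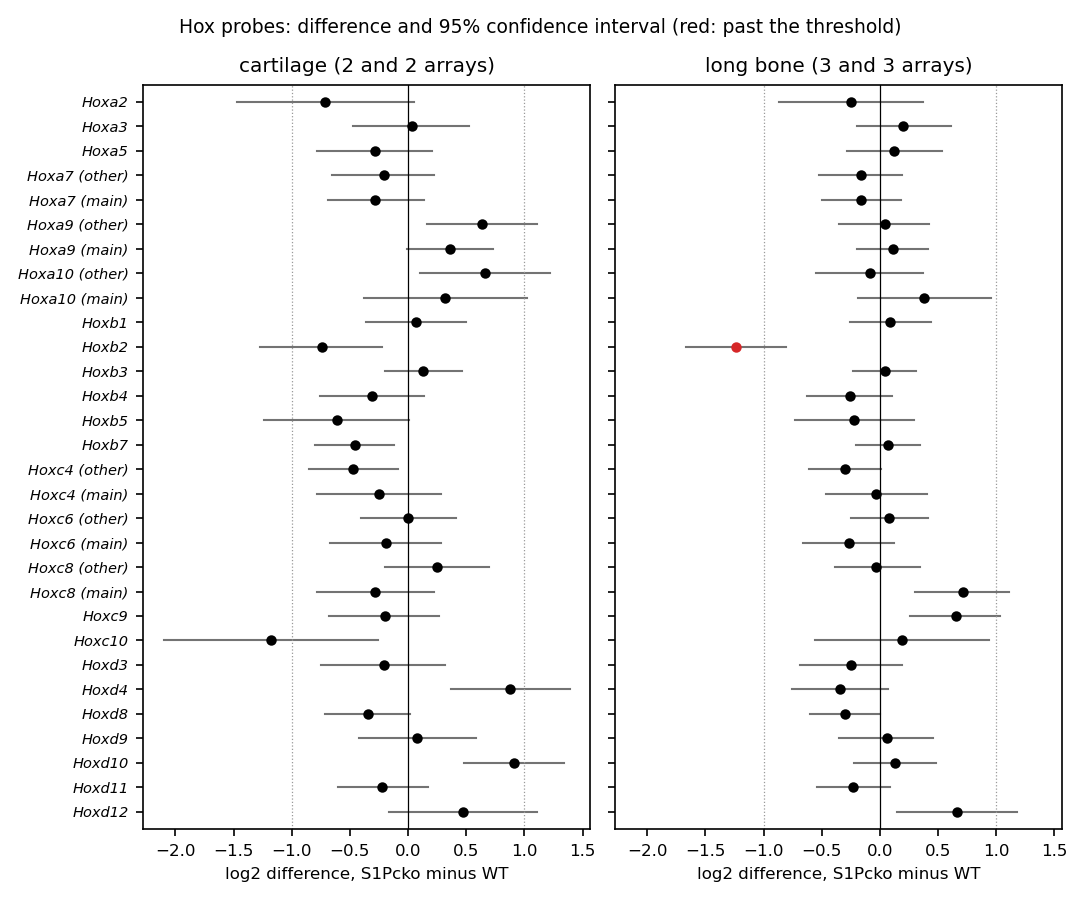
Log2 difference between S1Pcko and WT with its 95% confidence interval for the 30 tested Hox probes in cartilage (left) and long bone (right), in cluster order; "main" is the brightest of several probes, dotted lines mark 2-fold and red marks the probe past the threshold. Hoxb2 in long bone (-1.24) is the only red point, and in cartilage the interval of 10 probes reaches beyond 2-fold.

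In calvaria each genotype had 1 array, so there was no test. No tested Hox probe differed by 2-fold or more between them (0 of 30, against 1.37% of all tested probes), and the differences ran from -0.84 (Hoxb5) to 0.47 (Hoxd8). The step from long bone to calvaria was read in both genotypes. Of the 30 tested probes 19 were at least 2-fold lower in WT calvaria than in WT long bone. In S1Pcko 20 were lower by as much, and 19 were in both sets. The share of all tested probes was not counted, and 15 of the 30 could enter the test only through limb arrays.

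The genes that act with or upstream of the Hox clusters were compared in the same way. None of the 7 tested cofactors was called between genotypes in cartilage (median -0.05) or long bone (median 0.01). Among the 18 Polycomb and Trithorax regulators, Kmt2a, the Trithorax-class methyltransferase that keeps Hox genes active, was called higher in S1Pcko cartilage, with means of 9.99 in WT and 11.07 in S1Pcko (1.08 ± 0.14 SE, adjusted p = 0.00157), and 17 were not called. The study had picked this gene on these same arrays, so its direction is not independent evidence. In long bone Kmt2a differed by 0.17 (adjusted p = 0.539). Of 8 signals and factors upstream of limb Hox genes and 20 position factors, 0 were called between genotypes in either tissue.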

How the data were processed

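Illumina MouseWG-6 v1.1 bead arrays were hybridised by the authors with biotin-labelled cRNA from 12 samples. The authors deposited for each array a non-normalized signal intensity and a detection p-value per probe, and a table of normalized intensity values, which hold negative numbers down to -29.8 and were used only as an alternative (raised to 16 before log2). The scanner settings and bead summary software are not given in the sources used here. The members and gene lists were chosen with earlier results of these data known.

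Signals were background-corrected with limma's neqc (limma 3.58.1, R 4.3.3; negative controls inferred from the detection p-values, offset 16), quantile-normalized over the 12 arrays and expressed on the log2 scale, computed from the deposited intensities. The offset compresses differences of dim probes towards a level of log2(16). Probes detected (p under 0.05) on at least 2 of 12 arrays were kept (24328 of 46643), and a linear model with 6 groups was fitted (6 residual and 5.16 prior degrees of freedom). The residual degrees of freedom came from cartilage and long bone arrays only. P-values were adjusted by the Benjamini-Hochberg method over all kept probes, errors are standard errors of the fit, and intervals are 95%. Gene symbols came from the platform annotation (32794 probes with 1 symbol, 55 with several, 13794 with none), which can be old, and all 53 Hox probes matched RefSeq by gene ID. Probe positions are not given in the sources used here. The number of arrays limits the precision, and no pair of arrays was a duplicate (at most 1 identical value between arrays).

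Probes named with values per array were those called between genotypes, the 5 called with the largest difference in each direction in each tissue comparison, those of genes detected on a calvaria array and the brightest of each cluster in cartilage and long bone. Others are marked as chosen after their values were seen. Alternatives covered background correction, scaling, the authors' values, filters, offset, model, the replicate number as a block, the first amplification round alone, each array left out, probes averaged by gene and detection thresholds. With a calvaria array left out, calvaria was compared within the remaining genotype only. Averaged amplifications, normalization without calvaria and a 1.5-fold threshold were added after the data were seen. The averaging joined arrays that carry the same extract name, in both cartilage groups and in WT long bone, and left S1Pcko long bone as it was. The replicate number of the labels marks the amplification round and so a shared batch. Deviations of same-numbered WT and S1Pcko arrays from their group means correlated at 0.46 in cartilage, where both pairs mirror each other, and between -0.10 and 0.13 in long bone. The fitting code was run on simulated data with independent noise on each array, so that run does not check p-values for re-amplified extracts. Figures were drawn with matplotlib 3.10.9.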

Additional observations from a re-analysis of the deposited data

How the results depend on the processing

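Differences of a fixed set of named genes were recomputed, and none reversed sign. Of these values 1124 kept their side of the threshold, 67 lost it and 10 gained it. Values called in neither setting count among the 1124. The Hoxc8 and Hoxc9 differences between genotypes in long bone were not in the set. The count of Hox probes lower in calvaria stayed between 16 and 20 against long bone and between 15 and 22 against cartilage (17 to 19 and 19 to 20 with each array left out). Counts within the limb were small and moved with the settings. Long bone against cartilage (2 probes) gave 0 without background correction, 0 with an offset of 50, 0 in the first amplification round alone, 1 with averaged amplifications, 4 at 1.5-fold and 2 to 3 with each array left out. Within WT (3 probes) the count was 1 without background correction, 1 with an offset of 50, 1 with averaged amplifications, 0 in the first round alone, 0 without moderation of the variance and 0 to 4 with each array left out. Within S1Pcko (2 probes) the count was 0 without background correction, with the authors' values, without a filter, with an offset of 50, without moderation, in the first round alone and with averaged amplifications, and 0 to 2 with each array left out. The genotype count in long bone (1 probe) was 0 without moderation, in the first round alone and with averaged amplifications, and 1 with each array left out. In cartilage (0 probes) it was 1 at 1.5-fold (Hoxd10) and 0 to 1 with each array left out. The difference of the genotype effects (0 probes) ran from 0 to 2. The cause of these changes was not tested.

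The replicate number of the labels stands for the amplification round. With the replicate number as a block, 1 Hox probe was called between genotypes in cartilage (Hoxc10, -1.18, adjusted p = 0.0334 in limma) and 1 between long bone and cartilage within S1Pcko (Hoxd9), and no other count of called Hox probes moved by over 1.5 times. At a detection p under 0.01 and 0.001 the mean share of Hox probes detected went from 53.4% to 48.3% and 46.8% on limb arrays, and from 25.5% to 18.9% and 17.0% on calvaria arrays. Probes near background have only bounds, and 23 of 53 Hox probes could not be tested at this signal.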

Other observations

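Antisense and opposite-strand transcripts of the Hox clusters had 6 probes under 4 symbols (Hoxaas2, Hoxaas3, Hoxb5os and Hoxd3os1), of which 2 passed the filter. Hoxaas2, an antisense transcript of cluster A, was detected on 8 arrays. It read 5.80 and 5.94 in WT cartilage, 5.64 and 6.35 in S1Pcko cartilage, 4.90, 5.61 and 5.17 in WT long bone, 4.91, 5.85 and 5.32 in S1Pcko long bone, and 4.32 and 4.22 in calvaria. On both calvaria arrays it was not well above background. Cartilage exceeded calvaria at least 1.89-fold (fitted difference of calvaria from cartilage -1.66, adjusted p = 0.00161 in limma). Long bone, where 4 of 6 arrays detected it, exceeded calvaria at least 1.21-fold (fitted difference of calvaria from long bone -1.03, adjusted p = 0.0332). Hoxd3os1 read 4.58 to 5.41 on all arrays and did not pass the test between genotypes in long bone (-0.52, adjusted p = 0.0803).

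Of 8 tested signals and factors upstream of limb Hox genes, 2 were called against long bone, both higher in calvaria. Aldh1a2, which makes retinoic acid, read 4.42 to 5.22 on limb arrays and 6.25 and 6.34 in calvaria (1.29 against long bone, where 3 of 6 arrays detected it, adjusted p = 0.000245 in limma, and at least 2.36-fold over cartilage, where none did). Rarb, a retinoic acid receptor and target, read 5.81 to 6.68 and 7.85 and 7.87 (1.60, adjusted p = 3.96e-05). Cyp26b1 (-0.22), Rara (0.30) and Rarg (0.32), which also act in retinoic acid signalling, were not called.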
